A study of Mus musculus with 30 samples.

Results

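The genes described here are 46 genes of the mitotic spindle, the kinetochore and cytokinesis, chosen by name from a list of symbols and followed through tumours taken before and after a DNA-damaging drug. Of the 46, 45 were found on the array and tested, among 19938 genes in all, and Ccnb1 was not analysed here. The members were grouped by role into 7 mitotic kinases, cyclins and anaphase regulators, 5 spindle checkpoint genes and 11 centromere and kinetochore genes. The other groups were 9 spindle and chromosome motors and other spindle or chromosome proteins, 4 chromosomal passenger genes and 9 genes of the central spindle and cytokinesis.

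In a dividing cell, cyclin-dependent kinase with its mitotic cyclins, together with the Polo and Aurora kinases, builds the spindle and condenses the chromosomes. Kinetochores then attach the chromosomes to microtubules, and the spindle checkpoint restrains Cdc20, the activator of the anaphase-promoting complex, until attachment is complete. After separase has opened the cohesin rings, the chromosomal passenger complex moves to the central spindle, where centralspindlin and Ect2 position the contractile ring that divides the cell. Most of these genes are transcribed in G2 and mitosis, and many are known to be read through 2 kinds of promoter element, the cell cycle genes homology region (CHR), which the DREAM and MuvB complexes bind, and the CCAAT box, which NF-Y binds.

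The tumours grew under the skin of the flank from EL4, an established T lymphoma line of the mouse, and were taken at 0, 6 or 18 h after 1 intraperitoneal injection of oxaliplatin, a platinum drug that crosslinks DNA, at 10 mg per kg body weight, given 7 days after the EL4 cells. The mice had either received an antibiotic cocktail for 3 weeks before the EL4 cells or had not (water, labelled H2O), and the series asked how antibiotics affect tumour gene expression before and soon after the drug. There were 6 groups of 5 samples, called here water or antibiotics at 0, 6 and 18 h, and total RNA of each sample was hybridised to 1 array. Titles carry the letters WT, and the strain of the hosts and the make-up of the cocktail are not stated in the labels. All groups carried EL4 tumours. No group without the drug at 6 or 18 h was analysed here, so effects of the drug and of the time of collection cannot be told apart. The labels do not say that each sample came from its own mouse, so the p-values refer to the variation among these arrays, some of which may be technical. Samples were bulk tumour, in which fewer cells of a type and less RNA per cell cannot be told apart.

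Values are log2 expression as deposited, and a difference of 1 is a doubling. Of 13 T cell markers, 11 lay above the level of the median gene (7.52), among them Thy1 at 11.93, Cd3e at 11.29 and Lat at 12.08, while Cd8a lay at 6.46 and Cd6 at 6.43. All 45 members lay above the median gene. Over the members, the median SD within a group was 0.0484 in water at 6 h and 0.101 with antibiotics at 6 h, the smallest and the largest of the 6 groups. Water 6 h replicate 1 and antibiotics 6 h replicates 1 and 5 were high in keratinocyte or skeletal muscle markers, and results that turn on them are given without them too. In antibiotics 0 h replicate 1 the mean of the members was lowest of its group, at -0.11 relative to the mean of all arrays, against 0.04 for the median array of that group. A gene was called at an adjusted p under 0.05 from limma, fitted over all 19938 genes.

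The promoters of the members were read first, because the groups of genes that moved are described against them below. RefSeq promoters of 300 bases (250 before to 50 after the start site, build GRCm38.p6) were matched by symbol for 39 of the 45 members, with 44 promoters in all. Aurkb, Ccna2, Incenp, Kif20a, Spc24 and Tpx2 had none in the table. The CHR was searched as TTTGAA or TTCGAA on both strands and the CCAAT box as CCAAT on both strands. Matches of the 2 motifs were allowed to overlap. CHR letters were found in 33 of the 44 promoters (75.0%), against 16.5% of the 19177 promoters of all tested genes. CCAAT letters were found in 34 (77.3%), against 37.4%, and both were found in 28 (63.6%), against 6.6%. A match is a description of the letters in this window, not a binding site. The 6 stretches below run from 150 bases before to 30 bases after the start site, 5′ to 3′ on the gene's strand, with CHR and CCAAT letters of either strand in capitals. Cdc20 and Cenpa were lower in water tumours at 6 h, Cenpf, Racgap1 and Arhgap19 at both times, and Kif18a, which holds neither motif, at 18 h.
Cdc20 (chr4:118437314-118437493, minus strand): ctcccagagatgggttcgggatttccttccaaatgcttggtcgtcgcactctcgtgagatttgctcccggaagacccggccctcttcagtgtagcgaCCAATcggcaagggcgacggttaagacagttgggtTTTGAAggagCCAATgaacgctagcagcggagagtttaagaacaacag
Cenpa (chr5:30666736-30666915, plus strand): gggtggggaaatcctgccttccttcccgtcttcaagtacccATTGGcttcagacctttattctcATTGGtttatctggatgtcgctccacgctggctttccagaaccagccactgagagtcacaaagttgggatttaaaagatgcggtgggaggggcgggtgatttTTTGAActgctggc
Cenpf (chr1:189688057-189688236, minus strand): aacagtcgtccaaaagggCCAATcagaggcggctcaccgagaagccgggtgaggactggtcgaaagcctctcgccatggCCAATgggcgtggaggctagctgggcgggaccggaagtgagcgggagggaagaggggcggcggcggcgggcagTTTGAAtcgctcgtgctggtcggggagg
Racgap1 (chr15:99651627-99651806, minus strand): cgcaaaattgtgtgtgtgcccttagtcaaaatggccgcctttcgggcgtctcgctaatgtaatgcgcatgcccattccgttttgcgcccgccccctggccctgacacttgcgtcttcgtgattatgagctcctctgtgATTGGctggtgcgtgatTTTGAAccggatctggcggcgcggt
Arhgap19 (chr19:41802055-41802234, minus strand): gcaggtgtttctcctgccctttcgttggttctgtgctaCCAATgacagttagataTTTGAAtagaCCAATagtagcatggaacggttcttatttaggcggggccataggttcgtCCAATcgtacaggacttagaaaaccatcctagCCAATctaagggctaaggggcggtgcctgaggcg
Kif18a (chr2:109280588-109280767, plus strand): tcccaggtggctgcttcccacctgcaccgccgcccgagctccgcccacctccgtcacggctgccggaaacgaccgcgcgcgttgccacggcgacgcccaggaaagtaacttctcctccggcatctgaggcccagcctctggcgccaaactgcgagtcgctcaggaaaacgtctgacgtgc
The Cdc20 stretch has the CHR between a pair of CCAAT boxes, in Cenpa, Cenpf and Racgap1 the CHR lies just after the start site, and Arhgap19 has 4 CCAAT boxes around a CHR. Of 10 members called at 6 h in water, 9 had a promoter here and all 9 held both CHR and CCAAT letters, while of 19 called at 18 h, 16 had a promoter, 14 with CHR and 12 with CCAAT letters. Over all matched members, 30 of 39 held a CHR and 29 of 39 held CCAAT letters, and a difference from these shares was not tested.

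**Figure D1:**
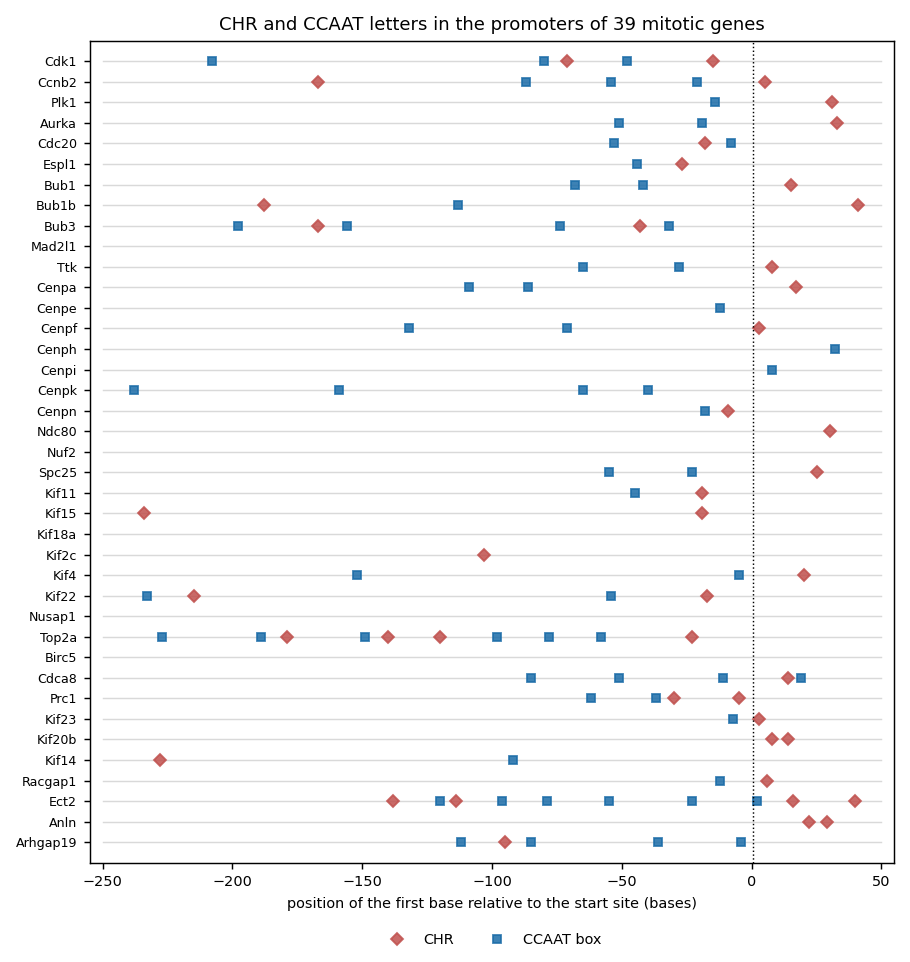
Positions of CHR (red diamonds) and CCAAT (blue squares) letters on either strand in the RefSeq promoters of 39 members, in bases from the start site (dotted line); each grey line is 1 gene, with its promoters laid over each other where it has more than 1. CHR letters stand in 30 of the 39 genes and CCAAT letters in 29, and 5 lines (Mad2l1, Nuf2, Kif18a, Nusap1 and Birc5) are empty.

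At 6 h after oxaliplatin, 10 of the 45 members had fallen in water tumours and none had risen. They were the kinases Plk1 and Aurka, the anaphase activator Cdc20, the centromere genes Cenpa and Cenpf, the spindle assembly factor Tpx2, the passenger protein Cdca8, and Prc1, Racgap1 and Arhgap19 of the central spindle and cytokinesis. Among all genes tested, 0.416% were called lower in this comparison. The median of the members was -0.085, against -0.006 over all genes, and 31 of 45 lay below 0. In 14 members the 2 groups did not overlap and the 6 h group was the lower, against 1.94% of all genes. The checkpoint genes gave 0 calls of 5. Spc25, a subunit of the Ndc80 kinetochore complex, had the highest difference of the members, 0.28 (SE 0.0745), with an adjusted p of 0.061. Leaving out 1 array at a time gave 6 to 9 calls, with 6 without water 0 h replicate 3 and 6 without water 6 h replicate 1. All 13 T cell markers lay below 0 in the same comparison, with a median of -0.093 and 0 calls, and their part in the result was not tested.

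At 18 h in water tumours, 19 of the 45 members were lower than at 0 h and none was higher. They included 5 of 9 spindle and chromosome motors and other spindle or chromosome proteins. They also included 6 of 9 genes of the central spindle and cytokinesis, but 1 of 5 checkpoint genes (Ttk) and 1 of 4 passenger genes (Incenp). Over all genes, 7.94% were called lower. The median of the members was -0.142, against 0.012 over all genes, and 40 of 45 lay below 0. The groups did not overlap in 19 members with the 18 h group lower, against 6.69% of all genes. Leaving out 1 array at a time gave 13 to 20 calls. Both comparisons share the water 0 h arrays. Arhgap19, Cenpf, Plk1, Prc1, Racgap1 and Tpx2 were called at both times, Aurka, Cdc20, Cdca8 and Cenpa at 6 h alone, and 13 members at 18 h alone. The direct comparison of 18 h with 6 h in water gave 4 members higher at 18 h, against 3.12% of all genes, which were Aurka, Cdc20, Cenpa and Kif20a. It gave 3 lower, against 6.46% of all genes, which were Cenpk, Ndc80 and Mad2l1. That count of 7 fell to 4 without water 6 h replicate 4 and to 4 without water 18 h replicate 3, and quantile normalization gave 8 lower and 5 higher. Over all genes that normalization called 2321 in either direction, and the main fit 1287 lower and 623 higher.

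Host cell markers were also higher in water tumours at 18 h, with 4 of 13 fibroblast and matrix genes called higher, 5 of 12 endothelial genes and 3 of 13 macrophage genes. Over all 19938 genes, 1233 were called higher in this comparison. The mean of the fibroblast list ran from -0.31 to 0.19 on the water 0 h arrays and from 0.05 to 0.36 on the water 18 h arrays, relative to the mean of all arrays. For the macrophage list the ranges were -0.11 to 0.36 and 0.13 to 0.45, and for the endothelial list -0.11 to 0.08 and 0.03 to 0.24. All 13 fibroblast genes and 11 of 12 endothelial genes lay above 0 in the comparison. T cell markers showed 2 of 13 higher, Cd3d and Cd4. With the 3 host list means as covariates, a setting chosen after seeing the data, 8 of the 19 members were still called lower: Anln, Arhgap19, Cenpf, Kif18a, Kif23, Plk1, Prc1 and Racgap1. The other 11 differences stayed below 0 without passing, among them Kif4 at -0.22, Ndc80 at -0.20, Espl1 at -0.18, Ect2 at -0.18, Tpx2 at -0.16, Kif2c at -0.11 and Kif11 at -0.10. That fit also called Birc5 lower, at -0.17 (SE 0.0503, adjusted p = 0.0401), and Spc25 higher, at 0.30 (SE 0.0754, adjusted p = 0.0128). Calls fell over all genes too, with 1600 of 19938 called in either direction in that fit. The main fit called 1583 lower and 1233 higher.

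**Figure D2:**
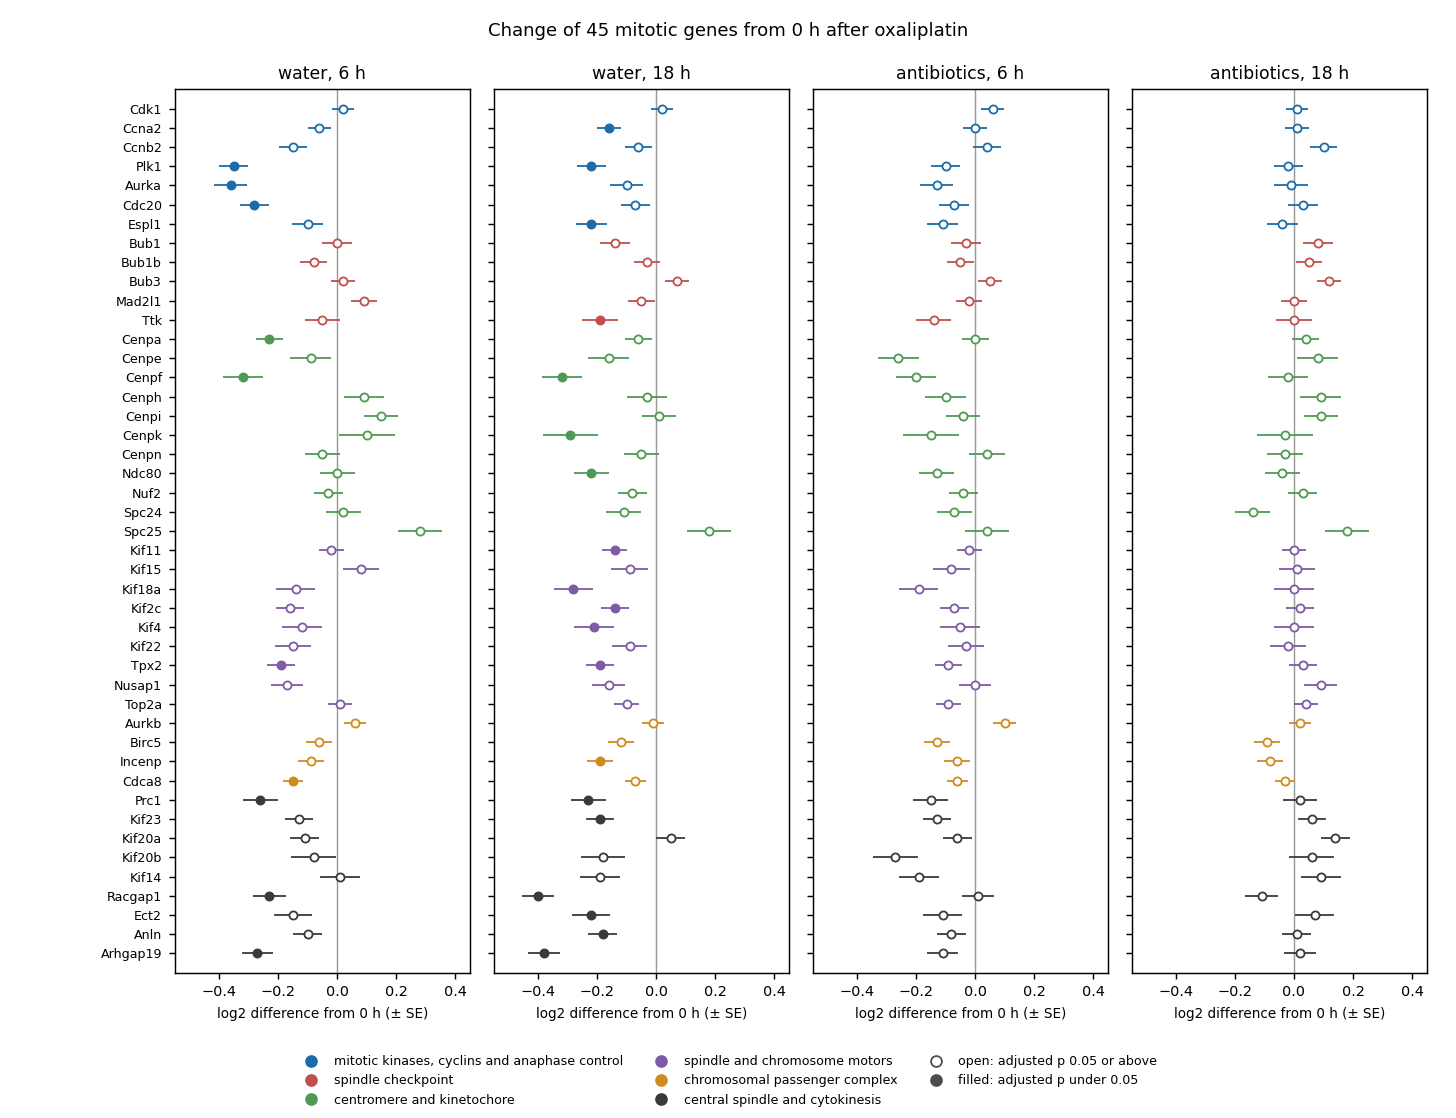
Log2 difference from 0 h (x axis, point ± SE of the limma fit) for the 45 members (rows, coloured by role) in water and antibiotic tumours at 6 and 18 h; filled points had an adjusted p under 0.05. In water 10 points are filled at 6 h and 19 at 18 h, all left of 0, while both antibiotic panels hold none.

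In antibiotic tumours no member passed the test at either time against antibiotics at 0 h. At 6 h the share of all genes called by limma was 0%, and the smallest adjusted p of a member was 0.235. An unadjusted p under 0.05 was found for 15 of the 45 members and for 2011 of all 19938 genes. The median of the members was -0.07, against 0.009 over all genes, and 36 of 45 lay below 0. Left without the 3 arrays high in skin or muscle markers, a setting chosen after seeing the data, the fit called Cenpf lower, at -0.33 (SE 0.0653), and Kif20b lower, at -0.38 (SE 0.0769), both with an adjusted p of 0.0331. Over all 19938 genes that fit called 57 in either direction. At 18 h 1.22% of all genes were called, and the smallest adjusted p of a member was 0.172. An unadjusted p under 0.05 was found for 6 of the 45 members and for 2223 of all 19938 genes. There the median of the members was 0.015, 30 of 45 lay above 0, and in 0 members was the whole 18 h group below the 0 h group, against 1.82% of all genes. From 6 to 18 h, 5 members rose in antibiotic tumours, against 1.23% of all genes: Cenpe, Kif20b, Kif14, Kif20a and Kif23. This count of 5 was 9 without antibiotics 6 h replicate 1 and 1 without its replicate 3 or its replicate 4, and 2, 3 and 1 without antibiotics 18 h replicates 2, 4 and 5. It was 0 in a fit of these 2 groups alone and 11 without the 3 arrays high in skin or muscle markers. Over all genes those fits called 0 and 911 in either direction, and the main fit 177 lower and 245 higher.

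Set against water tumours of the same time, antibiotic tumours had higher levels of 10 members at 18 h and lower levels of none. These were Ccna2 and Espl1, the kinetochore gene Ndc80, the motors Kif11 and Kif18a, and Kif23, Kif14, Racgap1, Ect2 and Arhgap19 of cytokinesis. Of all genes, 4.52% were called higher. The median of the members was 0.123, against -0.006 over all genes, with 39 of 45 above 0, and in 18 members the groups did not overlap with antibiotics the higher, against 4.73% of all genes. Except for Kif14, the 10 were among the 19 that were lower at 18 h in water. That comparison and this one share the water 18 h arrays, so the 2 sets of values are not independent. The count of 10 was 4 without water 18 h replicate 1, 6 without water 18 h replicate 3, 3 without antibiotics 18 h replicate 1 and 5 without antibiotics 18 h replicate 4. A fit of these 2 groups alone called 4. Over all genes that fit called 600 in either direction, and the main fit 901 higher and 665 lower.

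Host markers differed in this comparison too. Of the macrophage list Cd68 and C1qb were lower with antibiotics at 18 h and all 13 genes lay below 0, and of the fibroblast list Mmp2 and Col6a1 were lower and all 13 lay below 0. Macrophage list means ran from -0.39 to 0.13 with antibiotics, against 0.13 to 0.45 in water, and fibroblast list means from -0.35 to 0.27, against 0.05 to 0.36. T cell markers had 2 of 13 lower, Cd3d and Cd4. Over all 19938 genes, 665 were called lower with antibiotics at 18 h. With the host list means as covariates, 3 members were called higher, which were Arhgap19, Kif14 and Top2a, at 0.17 for Top2a (SE 0.0487, adjusted p = 0.0471). The 8 members that were no longer called stayed above 0, from Kif18a at 0.25, Kif23 at 0.18 and Ect2 at 0.18 to Kif11 at 0.10 and Ccna2 at 0.08. Calls fell over all genes too, with 729 of 19938 called in either direction in that fit. The main fit called 901 higher and 665 lower.

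At 0 h no member was called between antibiotic and water tumours, where 0.0903% of all genes were called by limma and the median of the members was -0.047. An unadjusted p under 0.05 was found for 6 of the 45 members and for 1317 of all 19938 genes. At 6 h Cdca8 was higher with antibiotics, against 1.13% of all genes, and Cenph and Spc25 were lower, against 2.64%. These 3 calls became 1 without water 6 h replicate 1, 4 or 5, 5 without antibiotics 6 h replicate 1 and 0 without antibiotics 6 h replicate 3. Quantile normalization gave 3 lower and 4 higher, and subtracting array medians gave 1 lower and 0 higher. Averaged over the 3 times, Cdca8, Cenpn and Racgap1 were higher with antibiotics, against 2.57% of all genes, and Spc25 was lower, against 4.07%.

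The change from 0 h was also compared between antibiotic and water tumours by an interaction term. At 6 h limma called 0 members and 0% of all genes, and the smallest adjusted p of a member was 0.336. An unadjusted p under 0.05 was found there for 11 of the 45 members and for 1964 of all 19938 genes. At 18 h Arhgap19 was called, against 0.0451% of all genes called higher, with a difference between the 2 changes of 0.40 (SE 0.0757) and an adjusted p of 0.0227. The remaining 44 members were not called. An unadjusted p under 0.05 was found at 18 h for 24 of the 45 and for 1893 of all 19938 genes. Of the 45, 42 lay above 0, with a median of 0.159 against 0.001 over all genes. The Arhgap19 call was lost without water 0 h replicate 1 or 4, antibiotics 0 h replicate 4, water 18 h replicate 3, or antibiotics 18 h replicate 1 or 4, and the count was then 0. It was 0 too after subtraction of array medians and with the host list means as covariates, where the difference was 0.36. Over all genes those settings called 8 and 6 in either direction, and the main fit 12 lower and 9 higher.

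**Figure D3:**
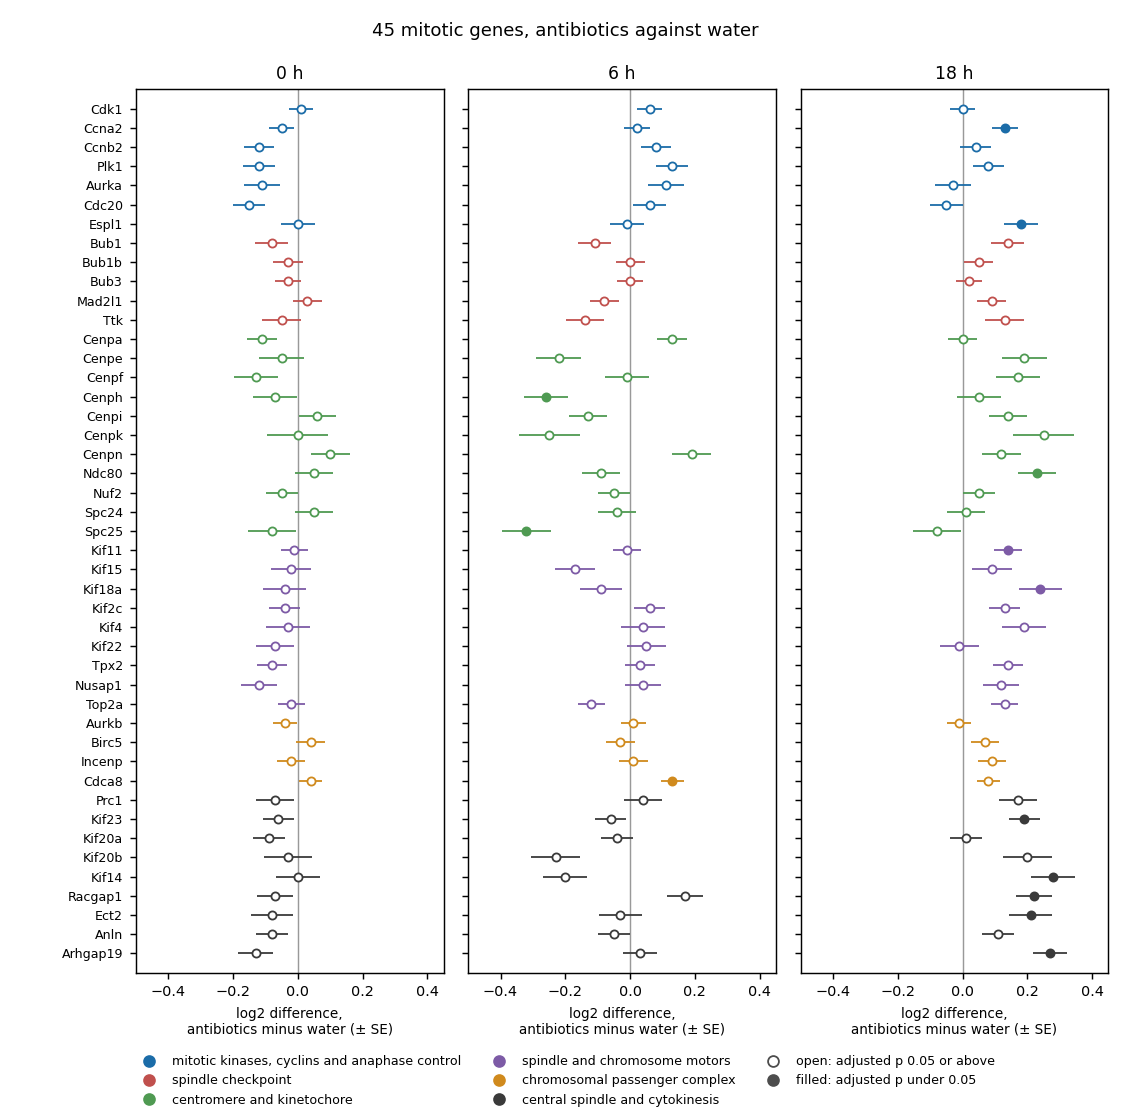
Log2 difference, antibiotics minus water (x axis, point ± SE of the limma fit), for the 45 members (rows, coloured by role) at 0, 6 and 18 h; filled points had an adjusted p under 0.05. No point is filled at 0 h, 3 are at 6 h (Cenph and Spc25 left of 0, Cdca8 right of it) and 10 are at 18 h, all right of 0.

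Among the mitotic kinases, Plk1, the Polo kinase that drives centrosome maturation and mitotic entry, fell at both times in water. Its levels on the 5 water arrays were 11.41, 11.35, 11.42, 11.44 and 11.42 at 0 h, 11.03, 11.10, 11.03, 10.97 and 11.16 at 6 h and 11.20, 11.21, 11.26, 11.18 and 11.09 at 18 h. Every array at 6 h and at 18 h lay below every array at 0 h. The differences from 0 h were -0.35 (SE 0.0491) at 6 h (adjusted p = 0.000342) and -0.22 (SE 0.0491) at 18 h (adjusted p = 0.00255). With antibiotics the levels were 11.33, 11.29, 11.24, 11.14 and 11.44 at 0 h, 11.30, 11.17, 11.19, 11.08 and 11.17 at 6 h and 11.35, 11.27, 11.22, 11.31 and 11.21 at 18 h. Those 3 groups overlapped, with differences from 0 h of -0.10 (SE 0.0491) at 6 h and -0.02 (SE 0.0491) at 18 h, and neither passed.

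Aurka, the centrosomal Aurora kinase that Tpx2 activates on the spindle, fell at 6 h and overlapped the 0 h range at 18 h. Its water levels were 9.80, 9.71, 9.91, 9.85 and 9.83 at 0 h, 9.44, 9.54, 9.40, 9.44 and 9.48 at 6 h and 9.63, 9.78, 9.82, 9.78 and 9.59 at 18 h. The 6 h arrays lay below all others of the water mice, and the 18 h arrays overlapped those of 0 h. The difference was -0.36 (SE 0.056) from 0 to 6 h (adjusted p = 0.00108) and 0.26 (SE 0.056) from 6 to 18 h (adjusted p = 0.0043). Cdc20 showed the same order of groups, with 10.51, 10.52, 10.67, 10.64 and 10.63 at 0 h, 10.32, 10.31, 10.30, 10.27 and 10.40 at 6 h and 10.44, 10.60, 10.66, 10.55 and 10.38 at 18 h. Its 6 h arrays were all below 0 h, while the 18 h arrays ran from the level of 6 h to that of 0 h. Its difference was -0.28 (SE 0.0505) from 0 to 6 h (adjusted p = 0.00352) and 0.21 (SE 0.0505) from 6 to 18 h (adjusted p = 0.00981). With antibiotics, Cdc20 read 10.50, 10.50, 10.44, 10.35 and 10.45 at 0 h and 10.43, 10.42, 10.28, 10.34 and 10.42 at 6 h. The antibiotics 0 h arrays were all below the water 0 h arrays, with a difference of -0.15 (SE 0.0505) that did not pass (adjusted p = 0.484).

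Cyclin A2 (Ccna2), which partners cyclin-dependent kinases through S phase and into mitosis, fell at 18 h in water. It read 11.50, 11.40, 11.50, 11.52 and 11.45 at 0 h and 11.25, 11.39, 11.31, 11.30 and 11.29 at 18 h in water, and 11.49, 11.39, 11.46, 11.47 and 11.36 at 18 h with antibiotics. The water groups did not overlap, whereas the 2 groups of 18 h did. Its differences were -0.16 (SE 0.0398) for 18 h against 0 h in water (adjusted p = 0.00513) and 0.13 (SE 0.0398) for antibiotics against water at 18 h (adjusted p = 0.0487), called in 10 and 2 of 10 fits without 1 array. Espl1, separase, the protease that cuts cohesin at anaphase, read 9.77, 9.73, 9.88, 9.90 and 9.81 at 0 h and 9.70, 9.52, 9.55, 9.65 and 9.56 at 18 h in water, and 9.93, 9.73, 9.66, 9.78 and 9.79 at 18 h with antibiotics. It too was lower on every water array of 18 h than at 0 h, and the antibiotics 18 h arrays reached into the water range at their low end. Its differences were -0.22 (SE 0.0521) (adjusted p = 0.00393) and 0.18 (SE 0.0521) (adjusted p = 0.03) in the same order, called in 10 and 5 of 10 such fits. Cdk1, the mitotic kinase itself, had values from 11.89 to 12.13 over all 30 arrays and passed in no comparison, and neither did Ccnb2, a mitotic cyclin, whose difference at 6 h in water was -0.15 (SE 0.0466) (adjusted p = 0.123). With array weights per group Ccnb2 was called there, at -0.15.

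Of the spindle checkpoint genes, Ttk (Mps1), the kinase that recruits checkpoint proteins to kinetochores, fell at 18 h in water. Its levels were 9.62, 9.54, 9.56, 9.70 and 9.53 at 0 h and 9.28, 9.40, 9.35, 9.53 and 9.46 at 18 h. The highest array of 18 h and the lowest of 0 h both round to 9.53. The difference was -0.19 (SE 0.0595) (adjusted p = 0.0351), called in 5 of the 10 fits that left out 1 array. Mad2l1, the protein that holds Cdc20 inactive, was lower at 18 h than at 6 h in water, at -0.14 (SE 0.0447) (adjusted p = 0.0389), called in 2 of 10 such fits, and was called in no other comparison. The kinase Bub1, its relative Bub1b and their partner Bub3 were called in no comparison of the main fit. Under some other settings, but not all, Bub1 was called. With array medians subtracted it was lower at 18 h than at 0 h in water, at -0.17, and higher with antibiotics at 18 h, at 0.18.

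The centromere and kinetochore genes did not move as a block. Cenpa, the histone H3 variant that marks the centromere, read 10.84, 10.76, 10.85, 10.84 and 10.78 at 0 h, 10.53, 10.55, 10.56, 10.58 and 10.66 at 6 h and 10.78, 10.74, 10.83, 10.70 and 10.71 at 18 h in water. Its 6 h arrays were below all arrays of 0 and 18 h. The difference was -0.23 (SE 0.0456) at 6 h against 0 h (adjusted p = 0.00667) and 0.17 (SE 0.0456) at 18 h against 6 h (adjusted p = 0.0164). Cenpf, a large outer kinetochore protein, stayed low instead, with 9.51, 9.38, 9.57, 9.64 and 9.45 at 0 h, 9.16, 9.23, 9.22, 9.21 and 9.14 at 6 h and 9.18, 9.19, 9.18, 9.24 and 9.16 at 18 h. All 10 later arrays lay below the lowest of 0 h. Its differences were -0.32 (SE 0.068) (adjusted p = 0.0138) and -0.32 (SE 0.068) (adjusted p = 0.00165). With antibiotics it read 9.23, 9.37, 9.39, 9.42 and 9.49 at 0 h, 9.40, 9.18, 9.12, 8.87 and 9.35 at 6 h and 9.47, 9.30, 9.30, 9.41 and 9.31 at 18 h. Its 6 h group there had a wide spread, from 8.87 to 9.40, and the 18 h arrays lay within the range of 0 h.

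Ndc80, the microtubule-binding subunit of the outer kinetochore, was level at 6 h and fell at 18 h. It read 9.21, 9.27, 9.29, 9.40 and 9.16 at 0 h, 9.23, 9.27, 9.20, 9.37 and 9.28 at 6 h and 8.89, 9.12, 9.03, 9.14 and 9.05 at 18 h in water, and 9.35, 9.37, 9.17, 9.27 and 9.20 at 18 h with antibiotics. The water 18 h arrays were below every array of the other 3 groups. The differences were 0.00 (SE 0.0591) at 6 h (adjusted p = 0.998), -0.22 (SE 0.0591) at 18 h (adjusted p = 0.0111) and 0.23 (SE 0.0591) for antibiotics against water at 18 h (adjusted p = 0.0169). Cenpk, of the inner kinetochore, read 9.08, 9.01, 9.14, 9.21 and 9.03 at 0 h, 9.25, 9.13, 9.20, 9.22 and 9.16 at 6 h and 8.66, 8.86, 8.75, 9.00 and 8.78 at 18 h in water. Its 18 h arrays were below all arrays of the earlier times, and the difference from 6 h was -0.38 (SE 0.0943) (adjusted p = 0.0109). The difference from 0 h was -0.29 (SE 0.0943) (adjusted p = 0.0411), called in 3 of 10 fits without 1 array. Nuf2 and Spc24, which form the Ndc80 complex with Ndc80 and Spc25, passed in no comparison, and at 18 h in water they read -0.08 (SE 0.0494) and -0.11 (SE 0.0592).

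Spc25 read 9.13, 8.94, 9.01, 9.19 and 9.01 at 0 h and 9.40, 9.16, 9.38, 9.42 and 9.33 at 6 h in water, and 8.94, 9.19, 8.96, 9.13 and 8.86 at 6 h with antibiotics. Of the 5 water arrays of 6 h, 4 were above all arrays of both other groups, and the remaining one was within the range of each. Antibiotics against water at 6 h was -0.32 (SE 0.0745) (adjusted p = 0.0167), and over the 3 times -0.16 (SE 0.043) (adjusted p = 0.0215). Cenph, an inner kinetochore subunit, read 9.03, 9.02, 9.03, 9.03 and 9.11 at 6 h in water and 8.94, 8.91, 8.54, 8.77 and 8.74 with antibiotics. Those groups did not overlap, and the difference was -0.26 (SE 0.0681) (adjusted p = 0.0275), called in 5 of 10 fits without 1 array. Cenpn, which reads the centromeric nucleosome, was higher with antibiotics over the 3 times by 0.14 (SE 0.0348) (adjusted p = 0.0153), in all 30 fits without 1 array. Cenpe, the kinetochore motor, read 9.81, 10.05, 9.94, 10.08 and 10.12 at 0 h, 9.96, 9.84, 9.60, 9.67 and 9.65 at 6 h and 10.15, 10.03, 10.00, 10.06 and 10.16 at 18 h with antibiotics. All arrays of 18 h were above those of 6 h, by 0.34 (SE 0.0691) (adjusted p = 0.0132), while 6 h against 0 h was -0.26 (SE 0.0691) (adjusted p = 0.235).

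**Figure D4:**
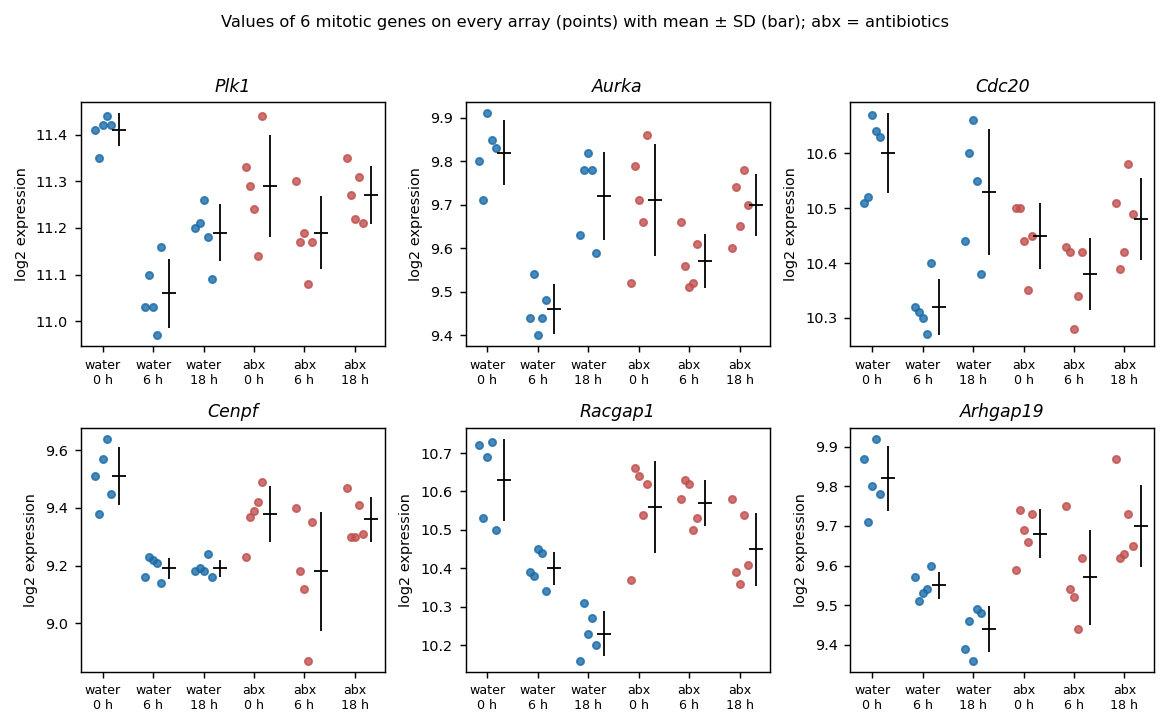
Log2 expression (y axis, differing scales) of Plk1, Aurka, Cdc20, Cenpf, Racgap1 and Arhgap19 on each of the 30 arrays (points, water blue, antibiotics red), with the mean and SD of each group of 5 beside them. In water, Plk1 and Cenpf lie below the 0 h arrays at both later times, Aurka and Cdc20 lie below them at 6 h and overlap them at 18 h, and Racgap1 and Arhgap19 have no overlap between any pair of water groups.

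All 9 spindle and chromosome motors and other spindle or chromosome proteins lay below 0 at 18 h in water, and 5 of them were called. Kif18a, the motor that damps chromosome oscillations at the metaphase plate, read 9.17, 9.10, 9.17, 9.34 and 9.22 at 0 h and 8.76, 8.96, 8.97, 8.99 and 8.93 at 18 h in water, and 9.21, 9.17, 8.99, 9.23 and 9.23 at 18 h with antibiotics. The water groups did not overlap, and the highest water and the lowest antibiotic array of 18 h both round to 8.99. The differences were -0.28 (SE 0.0662) (adjusted p = 0.00423) for 18 h in water and 0.24 (SE 0.0662) (adjusted p = 0.0209) for antibiotics against water. Kif11 (Eg5), the motor that pushes spindle poles apart, read 11.31, 11.32, 11.25, 11.41 and 11.38 at 0 h and 11.11, 11.28, 11.13, 11.22 and 11.22 at 18 h in water, and 11.38, 11.29, 11.30, 11.33 and 11.34 at 18 h with antibiotics. One water 18 h array reached into the 0 h range, and all antibiotics 18 h arrays were above the water 18 h arrays. Its differences were -0.14 (SE 0.042) (adjusted p = 0.0214) and 0.14 (SE 0.042) (adjusted p = 0.0407), called in 6 and 3 of 10 fits without 1 array.

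The chromokinesin Kif4 fell at 18 h, with a difference of -0.21 (SE 0.0683) (adjusted p = 0.037), and so did the microtubule depolymerase Kif2c, at -0.14 (SE 0.048) (adjusted p = 0.0454), the latter called in 2 of 10 fits without 1 array. Tpx2, which nucleates spindle microtubules, was lower, with differences of -0.19 (SE 0.0472) at 6 h (adjusted p = 0.0353) and -0.19 (SE 0.0472) at 18 h (adjusted p = 0.00689), with 2 and 10 of 10 such fits calling it. Top2a, the topoisomerase that untangles sister chromatids, Nusap1, a microtubule bundler, and the motors Kif15 and Kif22 were called in none of the 12 comparisons. At 18 h in water their values were -0.10 (SE 0.0413), -0.16 (SE 0.0555), -0.09 (SE 0.0616) and -0.09 (SE 0.06), and the adjusted p of Nusap1 was 0.0501.

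Within the chromosomal passenger complex, the scaffold Incenp and the targeting subunit Cdca8 (borealin) were called at different times. Incenp read 9.79, 9.67, 9.70, 9.78 and 9.61 at 0 h, 9.58, 9.65, 9.64, 9.64 and 9.57 at 6 h and 9.47, 9.55, 9.50, 9.60 and 9.51 at 18 h in water. The 18 h arrays were all below 0 h, with a difference of -0.19 (SE 0.0438) (adjusted p = 0.00382), and 6 h gave -0.09 (SE 0.0438) (adjusted p = 0.431). Cdca8 read 9.97, 10.03, 10.08, 9.99 and 10.10 at 0 h and 9.90, 9.86, 9.84, 9.94 and 9.87 at 6 h in water, and 10.03, 10.00, 10.04, 10.04 and 9.94 at 6 h with antibiotics. Water 6 h was below 0 h on every array, and 1 antibiotics 6 h array reached the water 6 h range. The difference was -0.15 (SE 0.0348) for 6 h in water (adjusted p = 0.0267), 0.13 (SE 0.0348) for antibiotics against water at 6 h (adjusted p = 0.0387) and 0.08 (SE 0.0201) over the 3 times (adjusted p = 0.011). The first 2 of these were each called in 3 of 10 fits without 1 array, and the last in all 30. The kinase Aurkb and its regulator Birc5 (survivin) were not called in any comparison of the main fit, and at 18 h in water they read -0.01 (SE 0.0375) and -0.12 (SE 0.0438) (adjusted p = 0.0572 for Birc5). Under some other settings Birc5 was called lower there, at -0.16 with array medians subtracted.

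The genes of cytokinesis held the largest falls of the 45 members in water at 18 h. Racgap1, a subunit of centralspindlin, read 10.72, 10.53, 10.69, 10.73 and 10.50 at 0 h, 10.39, 10.38, 10.45, 10.44 and 10.34 at 6 h and 10.16, 10.31, 10.23, 10.27 and 10.20 at 18 h in water. The 3 groups did not overlap and stepped down with time. Its difference from 0 h was -0.23 (SE 0.0554) at 6 h (adjusted p = 0.0294), called in 2 of 10 fits without 1 array, and -0.40 (SE 0.0554) at 18 h (adjusted p = 1.43e-05), called in all 10. With antibiotics it read 10.37, 10.66, 10.64, 10.54 and 10.62 at 0 h, 10.58, 10.63, 10.62, 10.50 and 10.53 at 6 h and 10.58, 10.39, 10.36, 10.54 and 10.41 at 18 h. These 3 groups overlapped, and the antibiotics 18 h arrays were all above the water 18 h arrays. Antibiotics against water at 18 h was 0.22 (SE 0.0554) (adjusted p = 0.013), and over the 3 times 0.11 (SE 0.032) (adjusted p = 0.0407), the latter called in 14 of 30 fits without 1 array.

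Arhgap19, which acts in cytokinesis of lymphocytes, gave the one interaction call. It read 9.87, 9.71, 9.80, 9.92 and 9.78 at 0 h, 9.57, 9.51, 9.53, 9.54 and 9.60 at 6 h and 9.39, 9.46, 9.36, 9.49 and 9.48 at 18 h in water. As with Racgap1, no pair of these groups overlapped. The differences from 0 h were -0.27 (SE 0.0535) at 6 h (adjusted p = 0.00816) and -0.38 (SE 0.0535) at 18 h (adjusted p = 1.74e-05). With antibiotics it read 9.59, 9.74, 9.69, 9.66 and 9.73 at 0 h, 9.75, 9.54, 9.52, 9.44 and 9.62 at 6 h and 9.87, 9.62, 9.63, 9.73 and 9.65 at 18 h. The antibiotic groups overlapped one another, and the 18 h arrays were all above those of water at 18 h. Antibiotics against water gave -0.13 (SE 0.0535) at 0 h (adjusted p = 0.63) and 0.27 (SE 0.0535) at 18 h (adjusted p = 0.00299).

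Ect2, which acts at the cell equator in positioning the contractile ring, read 10.08, 9.97, 10.04, 10.17 and 10.03 at 0 h and 9.71, 9.88, 9.86, 9.87 and 9.88 at 18 h in water, and 10.07, 10.05, 10.02, 10.12 and 10.02 at 18 h with antibiotics. The water 18 h arrays were below all arrays of both other groups. Its difference was -0.22 (SE 0.0653) at 18 h in water (adjusted p = 0.0248) and 0.21 (SE 0.0653) for antibiotics against water (adjusted p = 0.0417), called in 7 and 1 of 10 fits without 1 array. Kif23, the motor subunit of centralspindlin, read 10.56, 10.48, 10.59, 10.61 and 10.61 at 0 h and 10.30, 10.42, 10.39, 10.37 and 10.42 at 18 h in water, and 10.58, 10.57, 10.53, 10.58 and 10.57 at 18 h with antibiotics. Here too the water 18 h group lay apart and below. Its differences were -0.19 (SE 0.0475) (adjusted p = 0.00712) and 0.19 (SE 0.0475) (adjusted p = 0.0145), and 18 h against 6 h with antibiotics was 0.19 (SE 0.0475) (adjusted p = 0.0308), called in 5 of 10 fits without 1 array. The bundler Prc1 was lower in water, at -0.26 (SE 0.0587) for 6 h (adjusted p = 0.0212, called in 6 of 10 fits without 1 array) and -0.23 (SE 0.0587) for 18 h (adjusted p = 0.00784), and the ring scaffold anillin (Anln) was lower, at -0.18 (SE 0.049) at 18 h (adjusted p = 0.0137).

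The motors Kif14, Kif20a and Kif20b, which act at the midzone and midbody, were not called at either time against 0 h in water in the main fit. Under some other settings Kif14 was called lower at 18 h, at -0.22 with array medians subtracted and -0.18 after quantile normalization. Kif14 read 8.98, 9.20, 9.06, 9.25 and 9.15 at 18 h in water, and 9.33, 9.25, 8.96, 8.99 and 9.10 at 6 h and 9.42, 9.42, 9.28, 9.48 and 9.42 at 18 h with antibiotics. Every antibiotics 18 h array was above every water 18 h array, by 0.28 (SE 0.0677) (adjusted p = 0.0102). Against antibiotics at 6 h the groups overlapped and the difference was 0.28 (SE 0.0677) (adjusted p = 0.0274), called in 5 of 10 fits without 1 array. Kif20a read 10.29, 10.30, 10.24, 10.29 and 10.40 at 6 h and 10.38, 10.60, 10.48, 10.48 and 10.39 at 18 h in water, and 10.36, 10.35, 10.14, 10.26 and 10.21 at 6 h and 10.41, 10.46, 10.51, 10.47 and 10.51 at 18 h with antibiotics. It rose from 6 to 18 h in both kinds of mice, by 0.16 (SE 0.0493) in water with some overlap (adjusted p = 0.0391) and by 0.21 (SE 0.0493) with antibiotics without overlap (adjusted p = 0.0265), called in 3 and 5 of 10 fits without 1 array. Kif20b read 9.22, 9.40, 9.31, 9.56 and 9.56 at 0 h, 9.41, 9.21, 8.89, 8.99 and 9.18 at 6 h and 9.48, 9.45, 9.45, 9.41 and 9.54 at 18 h with antibiotics. The 6 h arrays were spread from 8.89 to 9.41 and the rise to 18 h was 0.33 (SE 0.0756) (adjusted p = 0.0208).

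Other genes of the same machinery were taken from 6 lists of 140 tested genes, none of them members. In water tumours at 18 h, 1583 of all 19938 genes (7.94%) were lower than at 0 h and 1233 higher. Of the 140, 47 were lower and 7 higher, with a median of -0.112. The 12 lower ones among 31 further kinetochore and checkpoint genes included the scaffold Knl1 at -0.28 and Sgo1, the protector of centromeric cohesin, at -0.25. Among 24 cytokinesis and chromosome condensation genes, 10 were lower, such as the cohesin subunit Rad21 at -0.25 and the proliferation marker Mki67 at -0.19. Fbxo5 (Emi1), the inhibitor of the anaphase-promoting complex, was lower, at -0.55, as was the kinase Wee1, which holds Cdk1 inactive, at -0.34. Of 24 regulators of mitotic transcription, 9 were lower, among them E2f8 at -0.38 and Mybl2, a MuvB partner, at -0.21. Foxm1, a transcription factor of mitotic genes named after its values were seen, was lower at -0.14, and Rbl2, a pocket protein of DREAM, was higher at 0.29. Gtse1, a G2 and S phase protein that binds microtubules and p53, was higher at 0.65.

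At 6 h in water, Wee1 was the one gene of the 140 called lower, at -0.25, and Gtse1 at 0.49 and Esco2, a cohesin acetyltransferase, at 0.30 were called higher. The median of the 140 was 0.001, against -0.085 for the 45 members. Over all 19938 genes, 83 (0.416%) were lower in that comparison and 139 higher. With antibiotics against water at 18 h, 901 of all 19938 genes (4.52%) were higher and 665 lower. Of the 140, 34 were higher and 4 lower, with a median of 0.092. The higher ones included Fbxo5 at 0.41, E2f8 at 0.32 and the cohesin subunit Stag1 at 0.31, and Gtse1 at -0.46 and Psrc1 at -0.32 were lower. For 32 genes of G1 and S phase, the counts were 0 lower at 6 h and 7 lower at 18 h in water, and 6 higher with antibiotics at 18 h. They were led at 18 h in water by the checkpoint kinase Chek1 at -0.37, Orc1 of the origin recognition complex at -0.31 and the replication licensing factor Cdc6 at -0.30. Of 23 target genes of p53, 10 were higher at 6 h and 14 at 18 h in water, with Mdm2, the ligase that degrades p53, at 0.58 and 0.65, and with antibiotics against water 8 were lower at 6 h and 7 at 18 h. One p53 target, Rrm2b, named after its values were seen, was higher with antibiotics at 18 h, at 0.23.

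**Figure D5:**
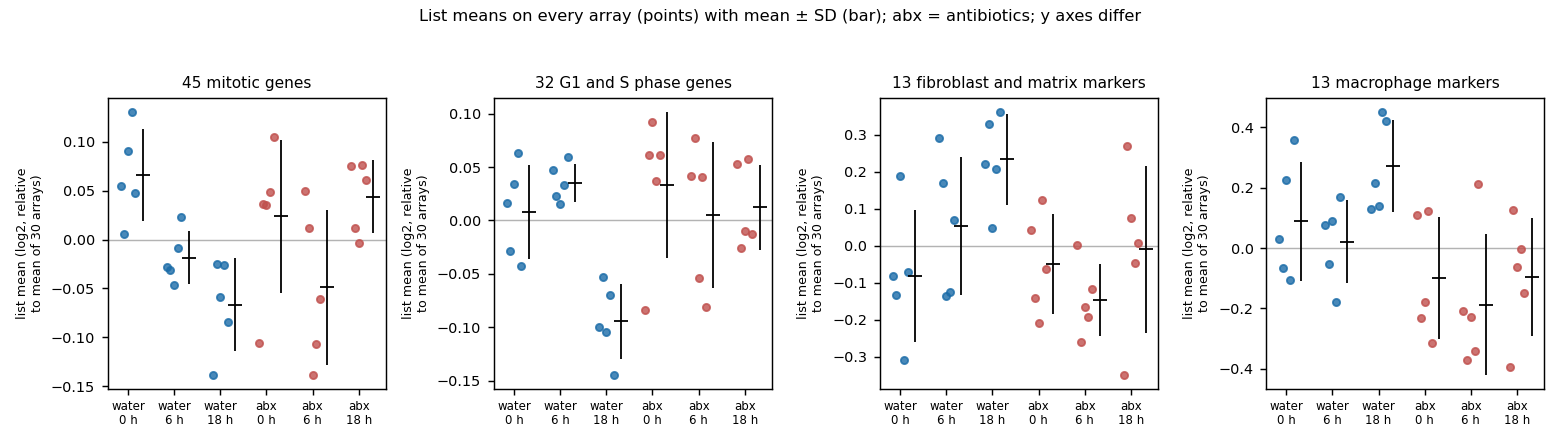
Mean of 4 gene lists on each array (points, water blue, antibiotics red; each gene first set relative to its mean over the 30 arrays, log2; y axes differ), with mean and SD of each group of 5. The mean of the 45 members runs from 0.01 to 0.13 in water at 0 h and from -0.14 to -0.02 at 18 h, and from 0.00 to 0.08 with antibiotics at 18 h, where the macrophage means run from -0.39 to 0.13 against 0.13 to 0.45 in water.

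Across arrays, the list mean of the members ran from 0.01 to 0.13 in water at 0 h, from -0.05 to 0.02 at 6 h and from -0.14 to -0.02 at 18 h. With antibiotics it ran from -0.11 to 0.10, from -0.14 to 0.05 and from 0.00 to 0.08. The water 0 h and 18 h groups did not overlap, and the antibiotic groups all overlapped one another. For the G1 and S phase list the water ranges were -0.04 to 0.06 at 0 h, 0.01 to 0.06 at 6 h and -0.15 to -0.05 at 18 h. Its 6 h arrays lay within the 0 h range, and its 18 h arrays lay below both.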

How the data were processed

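Total RNA of 30 EL4 tumour samples was measured on Affymetrix mouse arrays, in 6 groups of 5 taken from the labels. The authors deposited log2 values for 28853 rows. Partek 6.6 appears in the submitters' processing notes with no role stated, and the method of probe summary and normalization was not given in the sources used here. Medians of the arrays lay between 7.253 and 7.365, and no further scaling was applied. Precision is limited by the number of arrays, with a median residual SD of 0.115 over all genes and 0.0792 over the members.

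Rows were named through the platform's probe table, in which 21775 rows had 1 symbol, 1578 had several and 5500 had none here. Rows with several symbols were left out, and for 998 genes with more than 1 row, Top2a and Kif14 among the members, the row with the highest mean was kept, giving 19938 genes. One model of 6 group means over all 30 arrays was fitted with limma 3.58.1 in R 4.3.3, with 24 residual degrees of freedom, and 12 two-sided comparisons were adjusted by Benjamini-Hochberg, each over all genes. On data simulated for water 18 h against water 0 h, with 200 of 19938 genes changed, it recovered 33.8% of changes of 0.25 on the log2 scale, 89.4% of 0.5 and 100% of 1, with 8 false calls among 156.

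The members and the gene lists were chosen with earlier results of these data known. Array values are given only for the groups described in the text. They are given for the 6 members with the smallest p among those called in water at 6 h and at 18 h. Members called in any comparison that involves antibiotics have them too, except Cenpn, as does the lead member of a role group without these. Cenpk was added after its values were seen. Of each further list, up to 4 genes with the smallest p in each direction could be named. The labels' sample numbers run through the series by group, so order and group cannot be told apart. Alternatives were array medians subtracted, quantile normalization, only the groups compared, array weights per group, the mean of a gene's rows, genes above the median level, skin and muscle list means as covariates, and each array left out. Leaving out the 3 arrays high in skin or muscle markers together, and host list means as covariates, were added after seeing the data.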

Additional observations from a re-analysis of the deposited data

Results flagged for a closer look

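In groups of 5 arrays, 8 of the 150 groups tested had 1 array set apart from the other 4 by Dixon's test at the 95% level, which chance gives in about 1 group in 20. Plk1 was lowest on water 0 h replicate 2, at 11.35, with the next array at 11.41. Cenph was highest on water 6 h replicate 5, at 9.11, with the next at 9.03. Kif11 was lowest on antibiotics 0 h replicate 1, at 11.21, with the next at 11.34. On water 18 h replicate 1, Kif18a was lowest at 8.76, with the next at 8.93, and Ect2 was lowest at 9.71, with the next at 9.86. On antibiotics 18 h replicate 3, Kif18a was lowest at 8.99, with the next at 9.17, and Kif23 was lowest at 10.53, with the next at 10.57. Kif20b was highest on water 0 h replicate 4, at 9.52, with the next at 9.44.

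The change of Arhgap19 from 0 to 18 h differed between antibiotic and water tumours by 0.40 on the log2 scale in the interaction test.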

How the results depend on the processing

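Counts of members called are given here for each comparison, with the count as reported first, and no call changed direction under any setting tried. Counts over all genes are set beside them, in either direction for the other settings. None is given for the fits without 1 array. For water 6 h against 0 h the count was 10, and 6 to 9 without 1 array. For water 18 h against 0 h it was 19, 13 to 20 without 1 array, and 10 with host list means as covariates. All genes gave 1583 lower and 1233 higher as reported, and 1600 with host covariates. For water 18 h against 6 h the member count was 7, 4 to 8 without 1 array, 13 after quantile normalization, 12 with array weights per group, 14 over genes above the median level, and 2 with host covariates. All genes gave 1287 lower and 623 higher as reported. They gave 2321 after quantile normalization, 2587 with array weights, 2568 over genes above the median level and 821 with host covariates. For antibiotics 6 h against 0 h the member count was 0, and 2 without the 3 arrays high in skin or muscle markers. All genes gave 0 as reported and 57 without the 3 arrays. For antibiotics 18 h against 6 h the member count was 5, 1 to 9 without 1 array, 3 with array medians subtracted, 0 with only the groups compared, 1 with array weights, 11 without the 3 arrays, and 0 with host covariates. All genes gave 177 lower and 245 higher as reported. They gave 228 with medians subtracted, 0 with only the groups compared, 68 with array weights, 911 without the 3 arrays and 49 with host covariates. For antibiotics against water at 6 h it was 3, 0 to 5 without 1 array, 1 with medians subtracted, 7 after quantile normalization, 0 with only the groups compared, 8 over genes above the median level, 6 with skin and muscle covariates, and 5 without the 3 arrays. For antibiotics against water at 18 h the member count was 10, 3 to 9 without 1 array, 16 after quantile normalization, 4 with only the groups compared, 17 over genes above the median level, and 3 with host covariates. All genes gave 665 lower and 901 higher as reported. They gave 2045 after quantile normalization, 600 with only the groups compared, 2297 over genes above the median level and 729 with host covariates. Over all times the member count was 4, 3 to 4 without 1 array, 2 without the 3 arrays, and 1 with host covariates. All genes gave 812 lower and 513 higher as reported, 1864 without the 3 arrays and 641 with host covariates. For the interaction at 18 h the member count was 1, 0 to 1 without 1 array, 0 with medians subtracted, and 0 with host covariates. All genes gave 12 lower and 9 higher as reported, 8 with medians subtracted and 6 with host covariates. Counts of 0 for antibiotics 18 h against 0 h, antibiotics against water at 0 h and the interaction at 6 h were 0 under every setting tried. The settings differ in the genes, arrays or covariates used, and fewer samples or added covariates leave fewer residual degrees of freedom. Why the counts changed was not tested. Of the 59 calls of single members, quantile normalization kept 59, the mean of a gene's rows 58, and host covariates 21. Some members without a call in a comparison were called in it under other settings, among them Top2a, Nusap1, Bub1, Birc5 and Kif14. Only the groups compared was not run for the average over times. No paired analysis was possible because the labels give the groups no shared replicate numbers.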
